A study of Mus musculus with 4 samples.

Results

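The endothelial markers described here were 10 genes that are widely used to recognise the cells lining blood vessels, namely Pecam1, Cdh5, Kdr, Flt1, Vwf, Eng, Tek, Tie1, Emcn and Aqp1. They were chosen by gene symbol from a table of 56691 genes, and each matched 1 row. The table came from 4 RNA-seq libraries of wild-type mouse primary cardiac fibroblasts, taken from hearts at postnatal days 1 to 3. All 4 libraries came from cells that received MGT, the reprogramming factors Mef2c, Gata4 and Tbx5, which turn fibroblasts towards cardiomyocyte-like cells, and that were collected at day 7. In MGT+shNT (2 libraries) the factors were combined with a non-targeting short hairpin RNA, and in MGT+shScd1 (2 libraries) with a hairpin against Scd1, the gene of a stearoyl-CoA desaturase. These are called the control and the knockdown libraries in what follows. The labels give neither a sort that would remove endothelial cells nor separate cultures or animals for the replicates, and a p-value here covers only library-to-library spread, which may be technical.

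Endothelial identity rests on surface receptors and junction proteins that few other cells make together. Kdr and Flt1 encode receptors for vascular endothelial growth factor (VEGF). Kdr carries most of the growth signal, whereas Flt1 binds VEGF tightly with weak signalling. Tek encodes the receptor for angiopoietins, and Tie1 the related receptor that modulates it. Cdh5 (VE-cadherin) and Pecam1 (CD31) hold neighbouring endothelial cells together, Emcn encodes the sialomucin endomucin, and Vwf encodes von Willebrand factor, a clotting protein stored in endothelial granules. Eng (endoglin, a co-receptor for ligands of the transforming growth factor beta family) and Aqp1 (a water channel) are strong in endothelium but are made by other cells as well, Eng by fibroblasts and other stromal cells and activated macrophages, and Aqp1 by mesothelial and red blood cells among others.

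Scd1, the hairpin's target, had levels of 84.4 and 63.5 CPM under the control hairpin and of 6.64 and 8.04 CPM under its own hairpin, where CPM scale a count to the normalised library size. Total counts ran from 15135227 to 20894972 per library. Control replicate 2 was the shallowest library and stood apart in its ribosomal RNA, with 3.32% of its counts on Rn18s-rs5 against 0.129% to 0.199% elsewhere, so results that rest on it are also given without it. Fibroblast markers were well expressed, as 13 of 14 fibroblast genes had a mean of at least 1 FPKM (counts scaled to exon length and library total) and Col1a1 had means of 1069 FPKM in control and 809 FPKM in knockdown. By contrast Cldn5, a tight junction gene highly specific to endothelium, had 2 counts in control replicate 1 and 0 in the other 3 libraries, where 3 counts, the limit that a count of 0 allows, would be 0.152 to 0.21 CPM.

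The 10 markers did not sit at a common level. Eng was the highest, with 122.12 and 112.98 FPKM in control replicates 1 and 2 and 106.87 and 102.32 FPKM in knockdown replicates 1 and 2, above or equal to 98.2% of the genes tested. Aqp1 followed with a mean of 60.3 FPKM over the 4 libraries, and these were the members above 50 FPKM: together Eng (60.8%) and Aqp1 (33.1%) made up nearly all of the summed FPKM of the list. Flt1 (mean 7.12 FPKM), Kdr (1.99 FPKM) and Tek (0.955 FPKM) lay in the middle, and the values of each did not overlap those of its neighbours in this order. Pecam1 (0.312 FPKM), Emcn (0.292 FPKM) and Cdh5 (0.258 FPKM) were low and did not differ from each other beyond the spread between libraries, and the same held for Tie1 (0.117 FPKM) and Vwf (0.095 FPKM). The junction markers Pecam1 and Cdh5 were at or below 0.47 FPKM in every library, and 8.15% and 6.16% of tested genes had a mean at or below theirs.

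**Figure D1:**
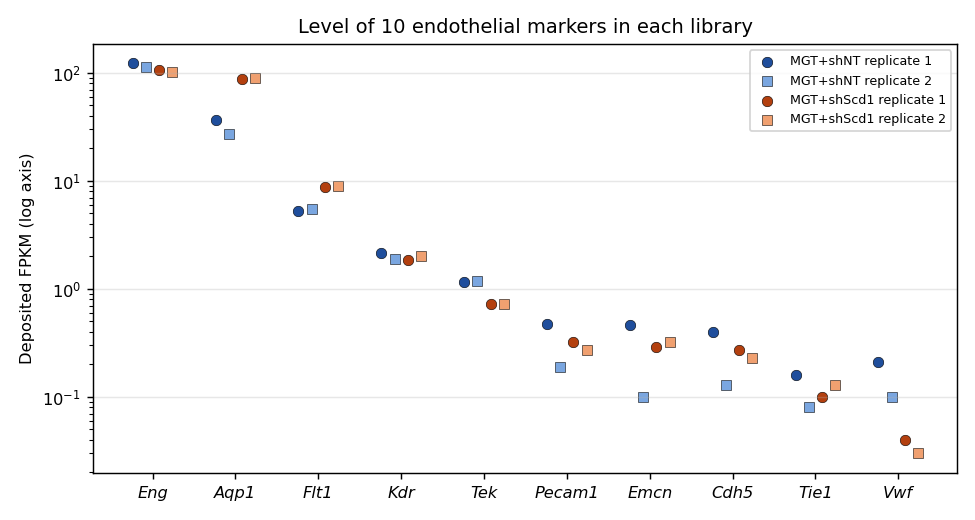
Deposited FPKM of the 10 endothelial markers in each of the 4 libraries on a log axis, ordered by mean level, with blue for MGT+shNT and orange for MGT+shScd1, circles for replicate 1 and squares for replicate 2. Eng and Aqp1 lie far above the rest, and Pecam1, Emcn and Cdh5 spread widely between the MGT+shNT libraries.

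All 10 markers passed the filter on low counts and were tested between the groups with edgeR's quasi-likelihood test on the deposited counts, with Benjamini-Hochberg adjustment over the 16234 genes tested. That test is the source of every adjusted p here unless another is named. A gene is said to rise or fall in knockdown relative to control where its adjusted p was below 0.05, and log2 fold changes are knockdown over control with their standard error (SE). Of the 10 markers, 2 rose (Aqp1 and Flt1), 3 fell (Vwf, Tek and Eng) and 5 did not pass (Kdr, Pecam1, Cdh5, Tie1 and Emcn). Over all genes tested 29.3% were called, 13.1% higher and 16.3% lower, so calls as such were common in this comparison. The median log2 fold change was -0.20 for the 10 markers and 9.44e-05 for all genes tested. The median of the markers was 0.43 without control replicate 1 and -0.59 without control replicate 2, so its sign rested on a single control library. The libraries are of bulk RNA, in which fewer cells of a type and less RNA per cell cannot be told apart. The same 2 rises and 3 falls were counted without control replicate 2. Without control replicate 1 there were 3 rises and 3 falls, without knockdown replicate 1 there were 2 and 2, and without knockdown replicate 2 there were 2 and 1.

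**Figure D2:**
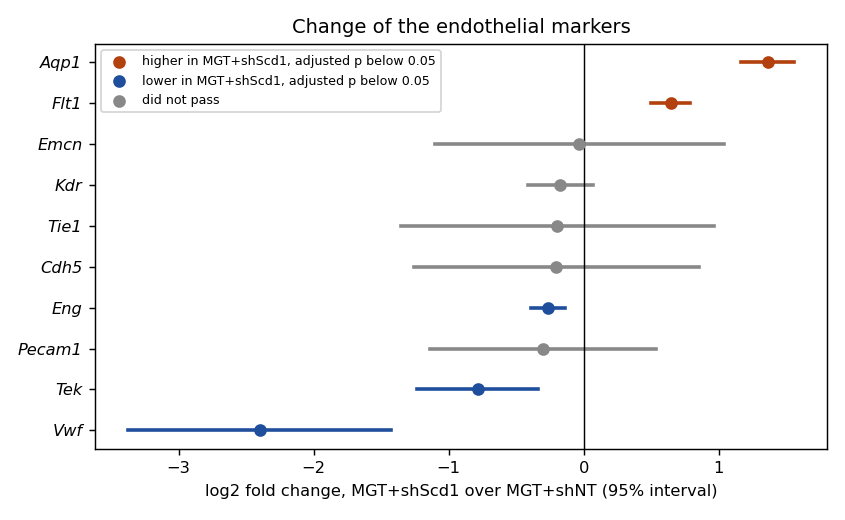
Log2 fold change (MGT+shScd1 over MGT+shNT) of the 10 endothelial markers with its 95% interval from the edgeR fit, ordered by size and coloured by call. Aqp1 (1.36) and Flt1 (0.64) lie to the right of 0, Vwf (-2.40), Tek (-0.79) and Eng (-0.26) to the left, and the intervals of the other 5 cross 0.

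Aqp1 (ENSMUSG00000004655, plus strand of chromosome 6, 55336432 to 55348555 in GRCm38), the water channel, showed the larger of the rises. It had 98.3 and 76.1 CPM in control replicates 1 and 2 and 222 and 229 CPM in knockdown replicates 1 and 2, from counts of 2028, 1088, 4375 and 4409. Both knockdown libraries were higher than both control libraries, and the knockdown libraries lay close together. Group means were 87.2 ± 15.7 and 225 ± 5.11 CPM (SD, n = 2 each), a 2.57-fold rise (log2 fold change 1.36, SE 0.09, adjusted p = 2.15e-07). It rose in each of the 12 alternative analyses, with log2 fold changes from 1.20 to 1.57. In FPKM, Aqp1 went from 36.95 and 27.36 to 87.17 and 89.85, close to the level of Eng in knockdown. Of the 11 other aquaporin genes, 9 were below the filter on low counts, 4 had no count in any library, and the 2 that were tested, Aqp11 and Aqp5, had mean levels of 0.20 and 0.22 FPKM. Neither was called (edgeR adjusted p of 0.261 and 0.339, and 0 of 2 at an unadjusted p below 0.05, and 0 called by DESeq2).

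Flt1 (ENSMUSG00000029648, minus strand of chromosome 5, 147561604 to 147726011), the tightly binding VEGF receptor, had 71.3 and 78.2 CPM in control and 114 and 118 CPM in knockdown. The groups did not overlap and each pair of libraries lay close together. The mean rose 1.56-fold, from 74.7 ± 4.83 to 116 ± 2.73 CPM (log2 fold change 0.64, SE 0.07, adjusted p = 1.09e-05), and the rise was called in all 12 alternative analyses (0.58 to 0.73). Kdr (ENSMUSG00000062960, minus strand of chromosome 5, 75932827 to 75978458), the main signalling receptor for VEGF, did not pass. Kdr had 19.9 and 18.3 CPM in control and 16.2 and 17.8 CPM in knockdown. Both knockdown values were below both control values. Such a lack of overlap, in either direction, was seen in 6 of the 10 markers and in 64.3% of the genes tested. The log2 fold change of Kdr was -0.17 (95% interval -0.42 to 0.07, adjusted p = 0.279). The ratio of Flt1 to Kdr was not tested as such.

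Vwf (ENSMUSG00000001930, plus strand of chromosome 6, 125546774 to 125686679) had the largest change in size among the 10, on few reads. Its counts were 69 and 25 in control replicates 1 and 2 and 11 and 8 in knockdown replicates 1 and 2, or 3.35, 1.75, 0.557 and 0.415 CPM. The groups did not overlap, but the control libraries themselves differed 1.91-fold (exact 95% counting interval 1.20 to 3.16, covering counting error only). The fall was 5.28-fold (log2 fold change -2.40, SE 0.45, adjusted p = 0.00131). It ranged from -2.77 without control replicate 2 to -1.82 without control replicate 1 and was called with each library left out, whereas limma on log2(FPKM + 1) and log2(FPKM + 0.1), scales that compress so low a gene, did not call it (adjusted p of 0.184 and 0.096).

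Tek (ENSMUSG00000006386, plus strand of chromosome 4, 94739289 to 94874976), the angiopoietin receptor, had 5.58 and 5.95 CPM in control and 3.34 and 3.32 CPM in knockdown, from counts of 115, 85, 66 and 64. Both knockdown libraries were lower, and unlike Vwf the control libraries lay close together (ratio 0.938, exact 95% counting interval 0.702 to 1.26). Tek fell 1.72-fold (log2 fold change -0.79, SE 0.21, adjusted p = 0.0116). The size held at -0.83 to -0.74 with a library left out, but the call was lost without knockdown replicate 1 (adjusted p = 0.104) or replicate 2 (adjusted p = 0.0989), by DESeq2 (adjusted p = 0.0593) and on log2(FPKM + 0.1) (adjusted p = 0.0557). Tie1 (ENSMUSG00000033191, minus strand of chromosome 4, 118471191 to 118490061), its partner receptor, had counts of 16, 6, 9 and 12, and its groups overlapped. The log2 fold change of Tie1 was -0.20 with a 95% interval from -1.36 to 0.96 (adjusted p = 0.824), so that a change of the size seen in Tek was not detectable at this depth.

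Eng (ENSMUSG00000026814, plus strand of chromosome 2, 32646595 to 32682669), the co-receptor, had 501 and 484 CPM in control and 419 and 402 CPM in knockdown. The groups did not overlap, and the mean went from 493 ± 11.6 to 410 ± 12.1 CPM, a 1.20-fold fall (log2 fold change -0.26, SE 0.06, adjusted p = 0.00428). The call was lost without knockdown replicate 2 (log2 fold change -0.23, adjusted p = 0.0989) and on both FPKM scales (adjusted p of 0.115 and 0.117), where Eng was still lower. The last bases of Eng overlap Fpgs on the opposite strand in GENCODE M21, and whether reads were counted by strand is not given in the sources used here. Fpgs had 290 to 388 counts per library against 6922 to 10329 for Eng. Over the 4 libraries the tested genes with a profile most like that of Eng, by Euclidean distance between centred log2 CPM, were Mgrn1 (distance 0.00936), Mcur1 (0.0154) and Foxp2 (0.0194), a description over 4 libraries in which many genes can look alike.

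Promoter sequence is shown for Aqp1 and Flt1, which rose, and for Tek, which fell, to set the 250 bases before each annotated start side by side. They are from RefSeq (GRCm38.p6), are written 5′ to 3′ on the gene's strand, and capitals mark a match, on either strand, to CAGGAA or to the related CCGGAA, forms of the core bound by ETS factors, which drive many endothelial genes.
Aqp1 (GRCm38, chr6:55336049-55336298, plus strand): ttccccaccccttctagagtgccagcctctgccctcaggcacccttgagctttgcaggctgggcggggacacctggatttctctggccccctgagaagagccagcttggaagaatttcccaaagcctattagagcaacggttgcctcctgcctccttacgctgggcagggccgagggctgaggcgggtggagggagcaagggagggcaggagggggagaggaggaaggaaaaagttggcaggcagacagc
Flt1 (GRCm38, chr5:147726012-147726261, minus strand): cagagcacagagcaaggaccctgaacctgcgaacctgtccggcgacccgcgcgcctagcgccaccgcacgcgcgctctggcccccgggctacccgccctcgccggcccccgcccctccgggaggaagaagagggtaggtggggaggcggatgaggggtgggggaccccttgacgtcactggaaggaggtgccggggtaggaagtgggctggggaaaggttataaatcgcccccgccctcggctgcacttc
Tek (GRCm38, chr4:94739039-94739288, plus strand): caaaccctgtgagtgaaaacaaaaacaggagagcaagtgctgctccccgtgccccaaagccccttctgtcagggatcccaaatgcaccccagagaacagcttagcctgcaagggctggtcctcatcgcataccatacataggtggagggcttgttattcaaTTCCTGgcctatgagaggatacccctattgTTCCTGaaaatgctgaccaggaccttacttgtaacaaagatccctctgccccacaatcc
Tek held 2 matches to CAGGAA, beginning 89 and 59 bases before the start, and neither Aqp1 nor Flt1 held a match to either form in this window. The letters GGAA that both forms share were not searched for, and they do occur in the Aqp1 and Flt1 windows. A lack of matches here is thus not a lack of the shared core. Of 32851 promoters of the same length, 25.7% held CAGGAA and 12% held CCGGAA. RefSeq's table had an entry for 7 of the 10 markers. Among the other 4 of these, Eng had no match, Tie1 had 1 and Emcn had 2 to CAGGAA, and Kdr had 1 to CCGGAA. No match to AGATAA, which GATA factors bind, or to the hypoxia response core ACGTG was found in any of the 7, where 9.99% and 16.6% of promoters held them. These matches are descriptions of letters and not of binding.

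The junction and surface markers Pecam1, Cdh5 and Emcn differed more within control than between the groups. Pecam1 (ENSMUSG00000020717, minus strand of chromosome 11, 106654217 to 106750628) had 61 and 18 counts in control replicates 1 and 2 and 38 and 31 in knockdown replicates 1 and 2, or 2.96, 1.26, 1.92 and 1.61 CPM. Both knockdown libraries lay between the control libraries, which differed 2.35-fold (exact 95% counting interval 1.37 to 4.22). The same arrangement was seen in Cdh5 (ENSMUSG00000031871, plus strand of chromosome 8, 104101625 to 104144511), with 35 and 8 counts in control against 22 and 18 in knockdown. Its CPM were 1.70, 0.560, 1.11 and 0.934, and the control libraries differed 3.03-fold (1.38 to 7.57). Emcn (ENSMUSG00000054690, plus strand of chromosome 3, 137341067 to 137432185) had 52 and 8 counts in control and 30 and 32 in knockdown, or 2.52, 0.560, 1.52 and 1.66 CPM. Here the control libraries differed 4.50-fold (2.13 to 10.98), while the knockdown libraries had a ratio of 0.915 (0.537 to 1.56). For Tie1 the control ratio of 1.85 had a counting interval of 0.687 to 5.77, which includes 1.

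None of these 3 markers passed between the groups, and the fits say little about the size of a change. The log2 fold change of Pecam1 was -0.30 (95% interval -1.14 to 0.54, adjusted p = 0.612), that of Cdh5 was -0.20 (-1.26 to 0.85, adjusted p = 0.797) and that of Emcn was -0.03 (-1.10 to 1.04, adjusted p = 0.968). The sign followed which control library was used. Without replicate 2 the log2 fold changes were -0.74 for Pecam1, -0.72 for Cdh5 and -0.66 for Emcn, with none called (adjusted p of 0.0832, 0.194 and 0.151). Without replicate 1 they were 0.49, 0.87 and 1.501, and Emcn was then called higher (adjusted p = 0.032). In that fit the lone control library is assumed to vary like the other libraries. Summed over Pecam1, Cdh5, Emcn, Vwf and Tie1, a set put together after their values were seen, the counts were 233 and 65 in control and 110 and 101 in knockdown, or 1.7, 0.6, 1.02 and 0.98 FPKM.

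**Figure D3:**
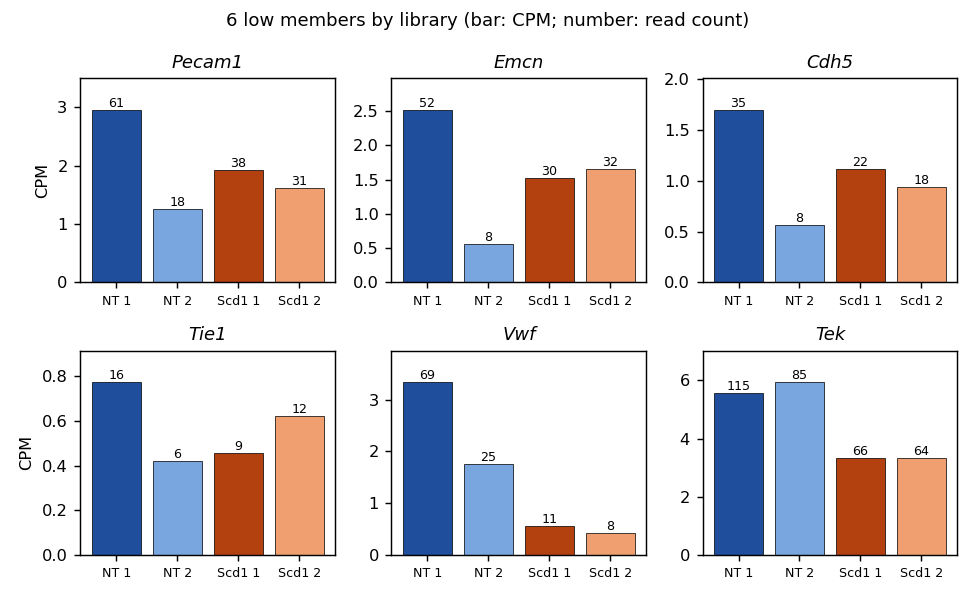
CPM (bars) and read counts (numbers above the bars) of 6 low endothelial markers in MGT+shNT replicates 1 and 2 (NT 1, NT 2) and MGT+shScd1 replicates 1 and 2 (Scd1 1, Scd1 2), each panel with its own axis from 0. For Pecam1, Emcn and Cdh5 both MGT+shScd1 libraries lie between the MGT+shNT libraries, and for Vwf and Tek both lie below them.

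**Figure D4:**
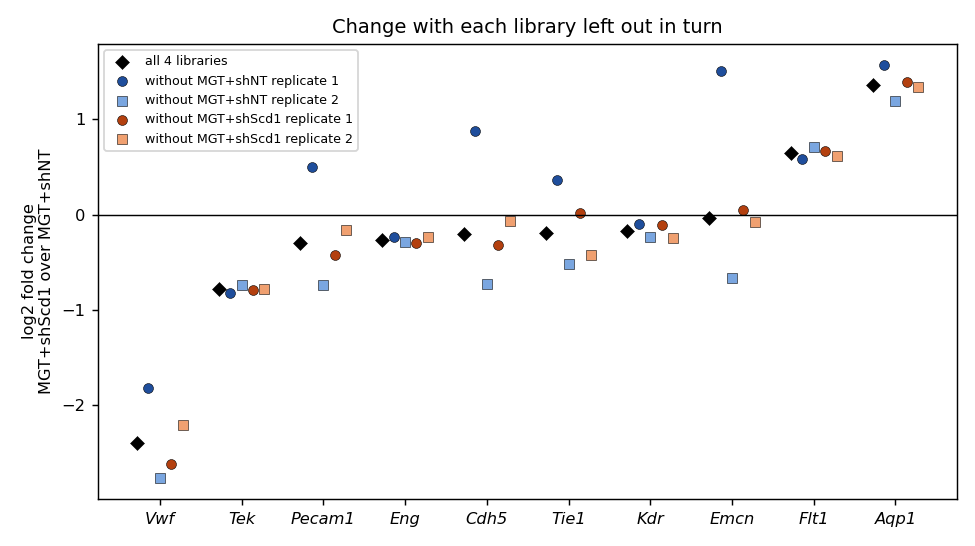
Log2 fold change (MGT+shScd1 over MGT+shNT) of each marker with all 4 libraries (black) and with each library left out in turn. Aqp1, Flt1, Tek, Eng, Kdr and Vwf stay on their side of 0, while Pecam1, Cdh5, Tie1 and Emcn cross it when MGT+shNT replicate 1 is left out.

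Among all tested genes with counts in both control libraries, 5.48% differed more than 2-fold between them, against 3 of the 10 endothelial markers, which were Pecam1, Cdh5 and Emcn, all higher in replicate 1. In a list of macrophage markers, 5 of 14 differed as much in the same direction, namely Cd14, Csf1r, Fcgr1, Itgam and Mrc1, whereas 0 of 14 fibroblast, 0 of 10 mesothelial, 0 of 9 mural and 0 of 10 cardiomyocyte markers did. Of the lists nearest to the endothelial markers, 2 of 27 other endothelial identity genes (7.41%), 0 of 9 capillary and tip cell, 0 of 9 endocardial and 0 of 5 lymphatic genes differed by that much. Between the knockdown libraries 2.45% of all genes, 0 of 10 endothelial markers, 1 of 27 other endothelial identity genes, 2 of 9 capillary and tip cell genes and 1 of 14 macrophage markers differed more than 2-fold. A 2-fold limit is passed more easily at low counts, and Pecam1, Cdh5 and Emcn had 8 to 61 counts in the control libraries. The lists were not matched for level. The part of count level, depth, ribosomal RNA share or cell content in the difference between the control libraries was not tested.

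Other genes of endothelial identity ranged widely in level. Of 40 such genes, 15 had a mean of at least 1 FPKM and 13 were below the filter on low counts, among them the endothelial ETS factor Erg, which had 15 and 5 counts in control and 6 and 6 in knockdown. Of the 27 tested, 0 rose, 10 fell and 17 did not pass (median log2 fold change -0.38, and 0 higher and 12 lower at an unadjusted p below 0.05, and 0 higher and 7 lower with DESeq2). Thus 37% were called, against 29.3% of all genes tested (16.3% lower). The genes that fell include Arhgap31, with means of 54.3 FPKM in control and 39.9 FPKM in knockdown, far above Pecam1 or Cdh5. Which cells of the culture made the RNA of these genes was not tested. The 17 that did not pass ran from Plvap (-0.73) to Gata2 (0.79). Among them were the well expressed Ptprb (0.13, mean 15.7 FPKM) and Ecscr (0.07, mean 11.1 FPKM). Cldn5, Sox17, Sox18 and Nos3 were, like Erg, below the filter. Selp (P-selectin), which like Vwf is stored in the endothelial granules and in platelets, fell from 13.0 and 10.5 to 2.63 and 2.91 CPM (log2 fold change -2.09, SE 0.19, adjusted p = 3.13e-06). Sele (E-selectin, an adhesion receptor of inflamed endothelium) had a log2 fold change of -1.23 and Stab1, a scavenger receptor that macrophages also make, of -0.69. Both calls depended on single libraries, with adjusted p of 0.153 for Sele and 0.226 for Stab1 without knockdown replicate 1 and 0.156 for Stab1 without control replicate 1. Without control replicate 2 the list had 2 rises and 11 falls, without control replicate 1 it had 0 and 8, and without knockdown replicates 1 and 2 it had 4 and 6 falls. Of 9 tested genes of capillary and tip cells, 1 rose (Apln, log2 fold change 1.46, named after its value was seen), 5 fell and 3 did not pass. The share called was 66.7%. The fatty acid carrier Fabp4 (-4.41), the fatty acid receptor Cd36 (-3.94) and the chemokine receptor Cxcr4 (-2.13) led the falls, and macrophages make all of these too. The Apln call was not made without either knockdown library. The capillary gene Gpihbp1 had no count in any library.

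The ligands of the receptors above moved in both directions. Of 16 VEGF and angiopoietin ligands and co-receptors, 3 rose, 6 fell and 7 did not pass. Thus 56.2% were called, against 29.3% of all genes tested (13.1% higher and 16.3% lower). The median was -0.27, and it was -0.02 without control replicate 1 and -0.40 without control replicate 2. Pgf, a ligand of Flt1 but not of Kdr, rose from 2.38 and 2.73 to 10.0 and 9.71 CPM (log2 fold change 1.96, SE 0.19, adjusted p = 5.85e-06). Vegfa, the ligand of both receptors, rose less, from 160 and 157 to 193 and 193 CPM (0.28, SE 0.06, adjusted p = 0.00193). The other VEGF genes of the list did not rise. Vegfb did not pass (0.02, adjusted p = 0.874), and Vegfc (-0.60, adjusted p = 0.000306) and Vegfd (-0.33, adjusted p = 0.0251) fell. The VEGF co-receptor Nrp2 fell (-1.04, adjusted p = 6.71e-06). Angpt2, an angiopoietin that binds the product of Tek, fell by 0.74 on the log2 scale (adjusted p = 0.0101), a call lost without knockdown replicate 1 (adjusted p = 0.152). The falls of the list numbered 4 there, 5 without knockdown replicate 2, 5 without control replicate 1 and 8 without control replicate 2. Around endoglin, 3 of 17 tested genes of its receptor axis rose, 10 fell and 4 did not pass, so that 76.5% were called. Their median was -0.31, or -0.17 without control replicate 2. Acvrl1, the signalling receptor that endoglin serves in endothelium, fell with it (-0.65, SE 0.07, adjusted p = 2.61e-05), as did Tgfbr3 (-0.62) and Acvr1 (-0.59). The ligands Gdf2 and Bmp10 were below the filter on low counts, with at most 9 counts in a library. The falls of this list numbered 11 and 7 without control replicates 1 and 2 and 8 and 6 without knockdown replicates 1 and 2.

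**Figure D5:**
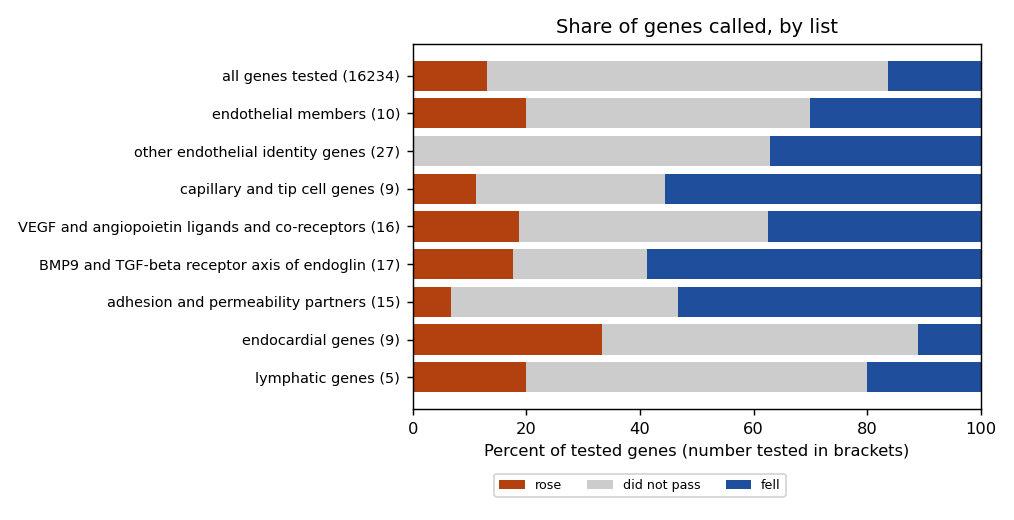
Percent of tested genes that rose, did not pass or fell in MGT+shScd1, for all genes tested, the 10 endothelial markers and 7 related lists, with the number tested in brackets. Of all genes 13.1% rose and 16.3% fell, and of the 27 other endothelial identity genes tested 0 rose and 10 fell.

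Among 15 tested partners of the junction proteins, 1 rose (Afdn, named after its value was seen), 8 fell and 6 did not pass (median -0.33). The share called was 60% here, and 44.4% and 40% in the endocardial and lymphatic lists below. Over all genes tested it was 29.3%. The connexin Gja4 (-1.44), the paracingulin gene Cgnl1 (-1.14) and the junctional adhesion molecule Jam3 (-0.997, from 49.99 and 49.89 to 25.2 and 24.8 CPM) had the largest falls, and the Gja4 call was lost without knockdown replicate 1 (-0.99, adjusted p = 0.216) and the fall was deeper without replicate 2 (-2.08). The Afdn call was not made without either knockdown library. Endocardial genes mark the endothelium inside the heart, and of these 3 of 9 tested were higher, 1 was lower and 5 were not called (median 0.06, or 0.02 and 0.04 without knockdown replicates 1 and 2). Npr3, a natriuretic peptide clearance receptor, rose from 16.4 and 17.0 to 45.4 and 40.4 CPM (1.36, SE 0.10, adjusted p = 4.08e-07), Nrg1 rose by 1.03 and Vwa1 by 0.76. Bmp6 fell (-0.68, adjusted p = 0.000214), Nfatc1 did not pass (0.06, adjusted p = 0.655) and Cytl1 had no count in any library. The Vwa1 call was lost without knockdown replicate 1 (adjusted p = 0.0675) or 2 (adjusted p = 0.0932). Without control replicate 1 Vwa1 changed by 0.45 and without control replicate 2 by 1.08. The list's falls numbered 2 without either control library. Of 5 tested lymphatic genes, Flt4, the lymphatic VEGF receptor, rose (0.66, SE 0.11, adjusted p = 0.000734), Lyve1 fell on counts of 26, 30, 9 and 16 (-1.35, adjusted p = 0.043, not called when control replicate 2 or either knockdown library was left out) and 3 did not pass. The lymphatic median of 0.24 was 0.45 without control replicate 1 and 0.13 without control replicate 2, and 2 of these genes were higher without control replicate 1.

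Markers of the other cells that a heart culture can hold moved beside the endothelial markers, and their part in those changes was not tested. The share called was 78.6% of the macrophage, 50% of the mesothelial and 71.4% of the fibroblast markers tested, against 29.3% of all genes. Of 14 macrophage markers tested, 1 rose (C1qb, 0.65), 10 fell and 3 did not pass (median -1.49, or -0.80 without control replicate 1 and -1.78 without control replicate 2). Of the other C1q genes, C1qa did not pass (0.21) and C1qc fell (-1.05). The summed level of the list was 592 and 526 FPKM in control against 159 and 153 FPKM in knockdown. Lyz2 made up most of this sum, with 426 and 396 FPKM in control and 98.8 and 92.3 FPKM in knockdown. Cd68 (-2.47), Ms4a7 (-2.45) and Lyz2 (-2.20) had the largest falls, and Cd163 had no count in control and 3 and 1 in knockdown. The falls numbered 7 without control replicate 1, 12 without control replicate 2, and 6 and 8 without knockdown replicates 1 and 2, and no member was higher in the last 3 of these fits. Of 10 mesothelial markers, which matter for Aqp1, 1 rose, 4 fell and 5 did not pass (median -0.33), and their summed level was 133 and 121 FPKM in control and 105 and 111 FPKM in knockdown. Msln (-0.73) and Krt18 (-1.11) fell and Krt19 rose (0.77, adjusted p = 0.0505 without knockdown replicate 2). The falls numbered 2 without knockdown replicate 1. Red cell and platelet genes, which share Aqp1 and Vwf, were mostly low, with 10 of 12 below the filter on low counts. The exception was Pf4, with counts of 98 and 68 in control and 58 and 65 in knockdown (log2 fold change -0.59). Its mean of 5.445 FPKM lay above those of Kdr (1.99 FPKM) and Vwf (0.095 FPKM). The red cell genes Hba-a1 and Hbb-bs had at most 7 counts in a library, and of the 2 tested, the platelet genes Pf4 and Itga2b, neither was called (edgeR, with 0 higher and 1 lower at an unadjusted p below 0.05, and 0 called by DESeq2), while limma on each FPKM scale called 1 of them lower. The fibroblast list had 1 rise (Postn, 1.03) and 9 falls among 14 (median -0.42), led by Col1a2 (-1.03) and Col3a1 (-0.97), with a summed level of 4556 and 4257 FPKM in control and 3600 and 3676 FPKM in knockdown.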

How the data were processed

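RNA was sequenced in 4 libraries as stranded, ribosomal RNA-depleted read pairs, per the labels' protocols, although polyA RNA is the labelled molecule. The authors deposited a raw read count for every gene, per the file headers. Trimmomatic 0.36, Subread 1.5.1, featureCounts, SAMtools and mm10 are named in the submitters' processing notes. The aligner, annotation release, strand setting and treatment of multi-mapping reads were not stated there or in the labels. The deposited FPKM equalled count over exonic length and total count for 100% of values, within 0.005.

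Columns were matched to libraries by group and last number, and a 2 inside the MGT+shScd1 column names is not explained by the labels. Genes kept by filterByExpr (minimum count 10, minimum total 15) were tested with edgeR 4.0.16 (R 4.3.3), TMM factors of 0.946 to 1.03, group as the single term, two-sided. Calls required an adjusted p below 0.05. An exact permutation test of 2 against 2 cannot go below 0.333 and was not used. Alternatives used limma 3.58.1 and DESeq2 1.42.0. Chi-square per degree of freedom between replicates was 48.2 (MGT+shNT) and 2.96 (MGT+shScd1), or 6.19 and 2.75 without the top 10 genes. These values exceed counting error alone, most in MGT+shNT, so no library was a copy of its replicate and all 4 were counted. They are no check of library quality. The fit was tried on simulated counts that share a fixed dispersion. That setting lacks the wider spread of the MGT+shNT pair, so it does not bear on the calls made here. Members and the 14 other lists (205 genes) were chosen with earlier results of these data known. From each list, at most 3 called genes with the largest change and at least 1 FPKM in the higher group are named, along with all members and, in any case, Cldn5, Erg and Vegfa. The 3 genes nearest in profile to the called member with the highest FPKM are also named, and any other gene (such as Col1a1, Lyve1, Apln, Afdn or Gpihbp1) was named after its values were seen. For Nrg1, which has 2 rows, the higher row was used. Positions are GRCm38 from GENCODE M21, since the deposited starts differed for all 10 members while widths were equal.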

Additional observations from a re-analysis of the deposited data

How the results depend on the processing

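Aqp1, Flt1 and Kdr kept their direction and their side of the threshold in all 12 alternatives. The count of members called higher was 2 in all alternatives but that without MGT+shNT replicate 1, so leave-outs gave 2 to 3. The count called lower, 3 with all libraries, was 1 on log2(FPKM + 1) and 0 on log2(FPKM + 0.1), with 2 and 3 lower at an unadjusted p below 0.05, and 1 to 3 with a library left out. Emcn, near 0 in the main analysis, was positive with DESeq2 (0.0137), limma-voom (0.23), log2(FPKM + 1) (0.0422), log2(FPKM + 0.1) (0.27), the replicate block (0.14), and without MGT+shNT replicate 1 (1.501) or MGT+shScd1 replicate 1 (0.05). Cdh5 was positive on log2(FPKM + 0.1) (0.0432) and without MGT+shNT replicate 1 (0.87), Pecam1 without that library (0.49), and Tie1 without it (0.36) or MGT+shScd1 replicate 1 (0.02). Without MGT+shNT replicate 2 the values were -0.72 for Cdh5, -0.66 for Emcn, -0.74 for Pecam1 and -0.52 for Tie1. Tie1 was not tested at a minimum of 1 CPM.

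Over the whole table, 2122 genes were called higher and 2641 lower. DESeq2 called 1365 higher, log2(FPKM + 1) 1249 lower and log2(FPKM + 0.1) 1266 lower, and leaving out a library gave 897 to 2450 higher and 1375 to 2945 lower. On the FPKM scales 2256 and 2260 were called higher, a larger share of the calls, and the median of all genes lay at 0.06 and 0.09. The FPKM are scaled to total count without TMM factors. Those were 0.989 and 0.946 in the MGT+shNT libraries and 1.03 in both MGT+shScd1 libraries. The part of this scaling in the FPKM results, including the falls not called there, was not tested. Over the 14 other lists, 23 genes were higher and 68 lower, with 44 lower on either FPKM scale and 14 to 26 higher and 49 to 74 lower with a library left out. The 35 list genes named by rule kept their direction in all 420 fits and lost their call in 19. All of these named genes but Vegfa were picked as called with the largest changes in the same libraries. Their kept direction was thus largely fixed in advance and lends them no support. Not all of the 205 list genes were tested, and over all genes tested 13.1% were higher and 16.3% lower. The replicate numbers are shared by the groups but paired by no label, and deviations of same-numbered libraries correlated at 0.00769 across genes. With the replicate block 2253 genes were called higher and 2737 lower, and 2 and 3 members, with no member's call changed. Depth limits 5 of the members, which had at most 69 counts in any library, and there were 2 libraries per group.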

Other observations

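Mural cells wrap the vessels that endothelium lines, and their markers went in both directions. The share called was 55.6% of the mural and 70% of the cardiomyocyte markers tested, against 29.3% of all genes. Among 9 that were tested, 3 were higher, 2 were lower and 4 were not called (median log2 fold change -0.16, or 0.0036 without knockdown replicate 1 and -0.31 without knockdown replicate 2). Mcam, an adhesion molecule of mural and endothelial cells, rose from 107 and 116 CPM in the control libraries to 271 and 263 CPM in knockdown (log2 fold change 1.26, SE 0.06, adjusted p = 1.44e-08 by edgeR), whereas Pdgfrb, the receptor for platelet-derived growth factor B, fell from 510 and 479 to 172 and 187 CPM (-1.46, SE 0.07, adjusted p = 6.21e-09). Ndufa4l2 was called higher on 19, 11, 37 and 34 counts (1.09, adjusted p = 0.049), and this call was lost with any library left out (adjusted p of 0.0516 to 0.249). With a control library left out, the mural list had 1 rise and 2 falls (replicate 1 out) or 2 and 3 (replicate 2 out), and with a knockdown library left out, 1 and 1 (replicate 1 out) or 1 and 2 (replicate 2 out). Of 10 cardiomyocyte markers, 5 rose, 2 fell and 3 did not pass (median 0.44, or 0.22 without control replicate 1 and 0.68 without control replicate 2). Among them were Actn2 (1.52), Tnni3 (1.35) and Nppa (-1.35). The summed level of the 10 was 796 and 925 FPKM in control and 1326 and 1261 FPKM in knockdown. Within this sum Actc1 went from 292 and 384 FPKM in control to 809 and 749 FPKM in knockdown. Tnnt2 fell from 381 and 407 to 338 and 319 FPKM (-0.36, adjusted p = 0.00114 by edgeR). The cardiomyocyte falls numbered 1 without knockdown replicate 2.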
